A study of Rattus norvegicus with 4 samples.

Results

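The 6 genes described here are 4 transient receptor potential (TRP) channels, Trpv1, Trpv2, Trpa1 and Trpm8, and the 2 Piezo channels, Piezo1 and Piezo2. They were taken by symbol from the 32623 genes of the count matrix, and all 6 were found. Spatial barcoding on a Visium slide measured them in 4 capture areas with sections 10 μm thick of the rat trigeminal nerve. TN1, TN2 and TN3 each held the trigeminal root, ganglion and proximal branches of 1 animal from the side of a unilateral mechanical compression of the trigeminal root (trigeminal neuralgia model, TN). The fourth area held control tissue (HC) of 2 animals, which the barcodes do not tell apart. The methods describe adult male Sprague-Dawley rats, with sham operation without compression as the control, whereas the series text takes HC from the healthy side of 2 of the TN animals. All samples were labelled wild type. Tissue was taken once behavior had stabilized after surgery.

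TRP and Piezo proteins are cation channels in the endings and cell bodies of sensory neurons, and they turn heat, cold, chemicals or stretch into depolarization. Trpv1 opens to capsaicin and noxious heat, Trpa1 to pungent irritants and Trpm8 to cold and menthol, while Trpv2 is a relative of Trpv1 that is also made by macrophages. Piezo2 is the channel of touch and proprioception in sensory neurons, and Piezo1 senses stretch and flow in vessel walls, fibroblasts and blood cells. In the trigeminal ganglion, the neurons that carry Trpv1 are largely small peptide-rich nociceptors.

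Trpv1 and Trpv2 had the most alike tissue distribution among the 6, and both lie on rat chromosome 10, so the 250 bases before their RefSeq start are shown, 5′ to 3′ on the plus strand (GRCr8). Capitals mark every match, on either strand, to CCAAT or CANNTG, the core of a CCAAT box and of an E-box.
Trpv1 promoter, chr10:58349686-58349935: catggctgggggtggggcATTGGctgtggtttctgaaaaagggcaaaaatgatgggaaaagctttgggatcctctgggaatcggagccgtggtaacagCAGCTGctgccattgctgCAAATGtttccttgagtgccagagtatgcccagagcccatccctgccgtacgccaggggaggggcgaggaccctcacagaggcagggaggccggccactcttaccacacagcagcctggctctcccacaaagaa
Trpv2 promoter, chr10:47771973-47772222: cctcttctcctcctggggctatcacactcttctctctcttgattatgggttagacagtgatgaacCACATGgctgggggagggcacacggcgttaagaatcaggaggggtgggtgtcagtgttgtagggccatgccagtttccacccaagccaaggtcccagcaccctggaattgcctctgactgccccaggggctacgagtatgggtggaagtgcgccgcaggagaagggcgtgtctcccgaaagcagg
The Trpv1 window held 1 CCAAT match, on the minus strand, and 2 CANNTG matches. The Trpv2 window held 1 CANNTG match and 0 CCAAT matches. Of 33469 rat promoter windows of this length, 34% held CCAAT and 65.5% held CANNTG, so these letters are common. Neither window held TATAAA (12.9% of windows), GGGCGG (30.5%), TGACGTCA (1.59%) or TGACTCA (4.05%). Promoter windows were matched by symbol for 4 of the 6 genes, and not for Trpa1 or Piezo1.

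Counts are unique molecular identifiers (UMIs), 1 for each captured RNA molecule, in 6773 spots that each cover several cells. TN1, TN2, TN3 and HC had 23546025, 38769935, 32239597 and 41335930 UMIs. The spots were grouped into 10 clusters without the channel genes, and clusters were named by marker lists. The ganglion region joined 2 clusters that scored highest on the sensory neuron list. The first, called the neuron cluster (leading genes Nefl, Necab1, Tac1, Nefh), took 146 spots from TN1, 40 from TN2, 94 from TN3 and 661 from HC. The second, called the injury cluster after its leading genes Csrp3, Gal, Reg3b, Vip, Vgf and Gap43, took 54, 326, 69 and 0, and none of the 12 sensory neuron genes was among its 10 leading genes. The injury cluster thus held most ganglion spots of TN2, a smaller share in TN1 and TN3 and none of HC, and values for the neuron cluster alone are given beside those of the region. A mixed cluster of sensory neuron and myelin genes was kept apart. The defining markers of the region were present in all areas: the 12 sensory neuron genes summed to 8354, 7550, 7240 and 8319 counts per 1000000 UMIs of the region (CPM). The 5 nerve injury genes, Atf3, Sox11, Sprr1a, Gal and Npy, summed to 412, 1140 and 474 CPM in TN and to 25.8 in HC.

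Trpv1 and Trpv2 made up most of the signal. Trpv1 had 6127 UMIs over all spots, Trpv2 5958, Piezo1 2705, Piezo2 375, Trpm8 157 and Trpa1 77. These are captured tags, and they do not rank the transcripts of different genes. Pooled over areas, the ganglion region held 69.2% of the UMIs of Trpv1, 61.7% for Trpv2, 61.1% for Trpm8, 53.2% for Trpa1, 48.8% for Piezo2 and 22% for Piezo1. These shares follow the tissue in an area. In TN3, with the fewest ganglion spots, they were 46.7% for Trpv1, 35% for Trpv2, 20% for Trpm8 and 23.5% for Trpa1, and in HC 79.4%, 74.9%, 69.5% and 60%. The most UMIs of a member in 1 spot were 32 for Trpv1, 12 for Trpv2, 11 for Piezo1, 3 for Piezo2 and 2 each for Trpa1 and Trpm8.

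Trpv1 was highest in the spots rich in sensory neurons. In the neuron cluster its TN levels were 91.6 CPM (TN1), 109 (TN2) and 87.6 (TN3), and its HC level was 82.4. The mixed cluster followed with 64.8, 57.3, 55.3 and 58.8 CPM, below the neuron cluster of every area. Outside the ganglion, the connective tissue region had 20 ± 2.55 CPM (SD, n = 2 areas), blood and bone 17.8 ± 9.94 (n = 4), peripheral myelin 16.7 ± 4.23 (n = 2), central myelin 10.8 ± 5.98 (n = 4), astrocyte 9.69 ± 3.77 (n = 2) and central neuron 8.26 ± 2.55 (n = 2). Neighbors in this second series differed by no more than the larger of their SDs. Over 27 sums of a region or cluster in an area, log2 Trpv1 had a Pearson r of 0.95 with the log2 sum of the sensory neuron list. These points share libraries, and the value is a description.

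Trpv2 was highest in the injury cluster, at 76.3 ± 7.39 CPM (n = 3), above the neuron and mixed clusters of each TN area. It had 66.7, 65.8, 45.8 and 59.9 CPM in the neuron cluster of TN1, TN2, TN3 and HC, and 67.9, 46.7, 52.9 and 50.4 in the mixed one, so the ranges of these clusters overlapped. Connective tissue had 30.3 ± 1.65 CPM (n = 2), blood and bone 22.9 ± 11.6 (n = 4) and peripheral myelin 18.7 ± 1.39 (n = 2). Central myelin had 18.2 ± 10.3 CPM (n = 4), astrocyte 18.2 ± 4.59 (n = 2) and central neuron 12.3 ± 3.76 (n = 2). Its r with the sensory neuron list was 0.92 over the same 27 points.

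Piezo1 had another order of tissues. It was highest in connective tissue, with 49.9 CPM in TN2 and 48.9 in TN3 (49.4 ± 0.69, n = 2), followed by astrocyte at 35.2 ± 3.81 (n = 2). Peripheral myelin had 15.1 CPM in TN1 and 30 in TN3, and blood and bone 17.5 ± 5.44 (n = 4). The mixed cluster had 17.3 ± 12 CPM (n = 4), and its 34.7 CPM in TN2 was above the 32.5 of astrocyte there. Connective tissue and astrocyte were read in TN2 and TN3 alone, so the means of regions rest on unlike sets of areas. The ganglion region (11 ± 7.71, n = 4) and central myelin (11 ± 4.34, n = 4) were level, and central neuron was lowest at 6.42 ± 2.34 (n = 2), within the SD of the ganglion region. Connective tissue stood above astrocyte by more than either SD. The r of Piezo1 was 0.79 with the connective tissue list, 0.69 with the macrophage list, 0.13 with the astrocyte list and -0.30 with the sensory neuron list. The astrocyte spots of TN2 and TN3 also had 2182 and 3016 CPM of the macrophage list and 3427 and 3138 CPM of the connective tissue list. Which cells of these spots held Piezo1 was not tested.

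Trpa1, Trpm8 and Piezo2 were sparse. In the ganglion region Trpa1 had 10, 6, 4 and 21 UMIs (TN1, TN2, TN3, HC), and it had 0 UMIs in central myelin, astrocyte and central neuron spots of every area. Trpm8 had 18, 17, 4 and 57 ganglion UMIs and 3 UMIs in all central myelin spots, all of HC. Piezo2 had 36, 38, 19 and 90 ganglion UMIs (3.12 ± 0.64 CPM, n = 4), 0.89 ± 0.22 CPM in central myelin (n = 4) and 0 UMIs in astrocyte spots. None of the 3 had its highest mean level in the ganglion region. In the shallow blood and bone spots Trpm8 had 5.64 CPM in TN1, 3.44 in TN3 and 3.03 in HC, on 4, 3 and 12 UMIs, and 0 UMIs in TN2 (mean 3.03 ± 2.32 CPM, n = 4, against 1.44 ± 0.74 in the ganglion region). Trpa1 had 1.08 ± 0.76 CPM there, against 0.71 ± 0.29. Piezo2 was also seen in the mixed cluster, with 8.92 CPM in TN1 and 6.45 in HC but 0 UMIs in TN2. In the blood and bone spots it had 8.45 CPM in TN1, 4.58 in TN3 and 7.07 in HC, on 6, 4 and 28 UMIs, and 0 UMIs in TN2. Its mean was 5.03 ± 3.71 CPM there (n = 4) and 4.5 ± 3.96 in the mixed cluster (n = 4), against 3.12 ± 0.64 in the ganglion region. In HC the blood and bone spots also had 3664 CPM of the sensory neuron list, against 8319 in the ganglion region.

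**Figure D1:**
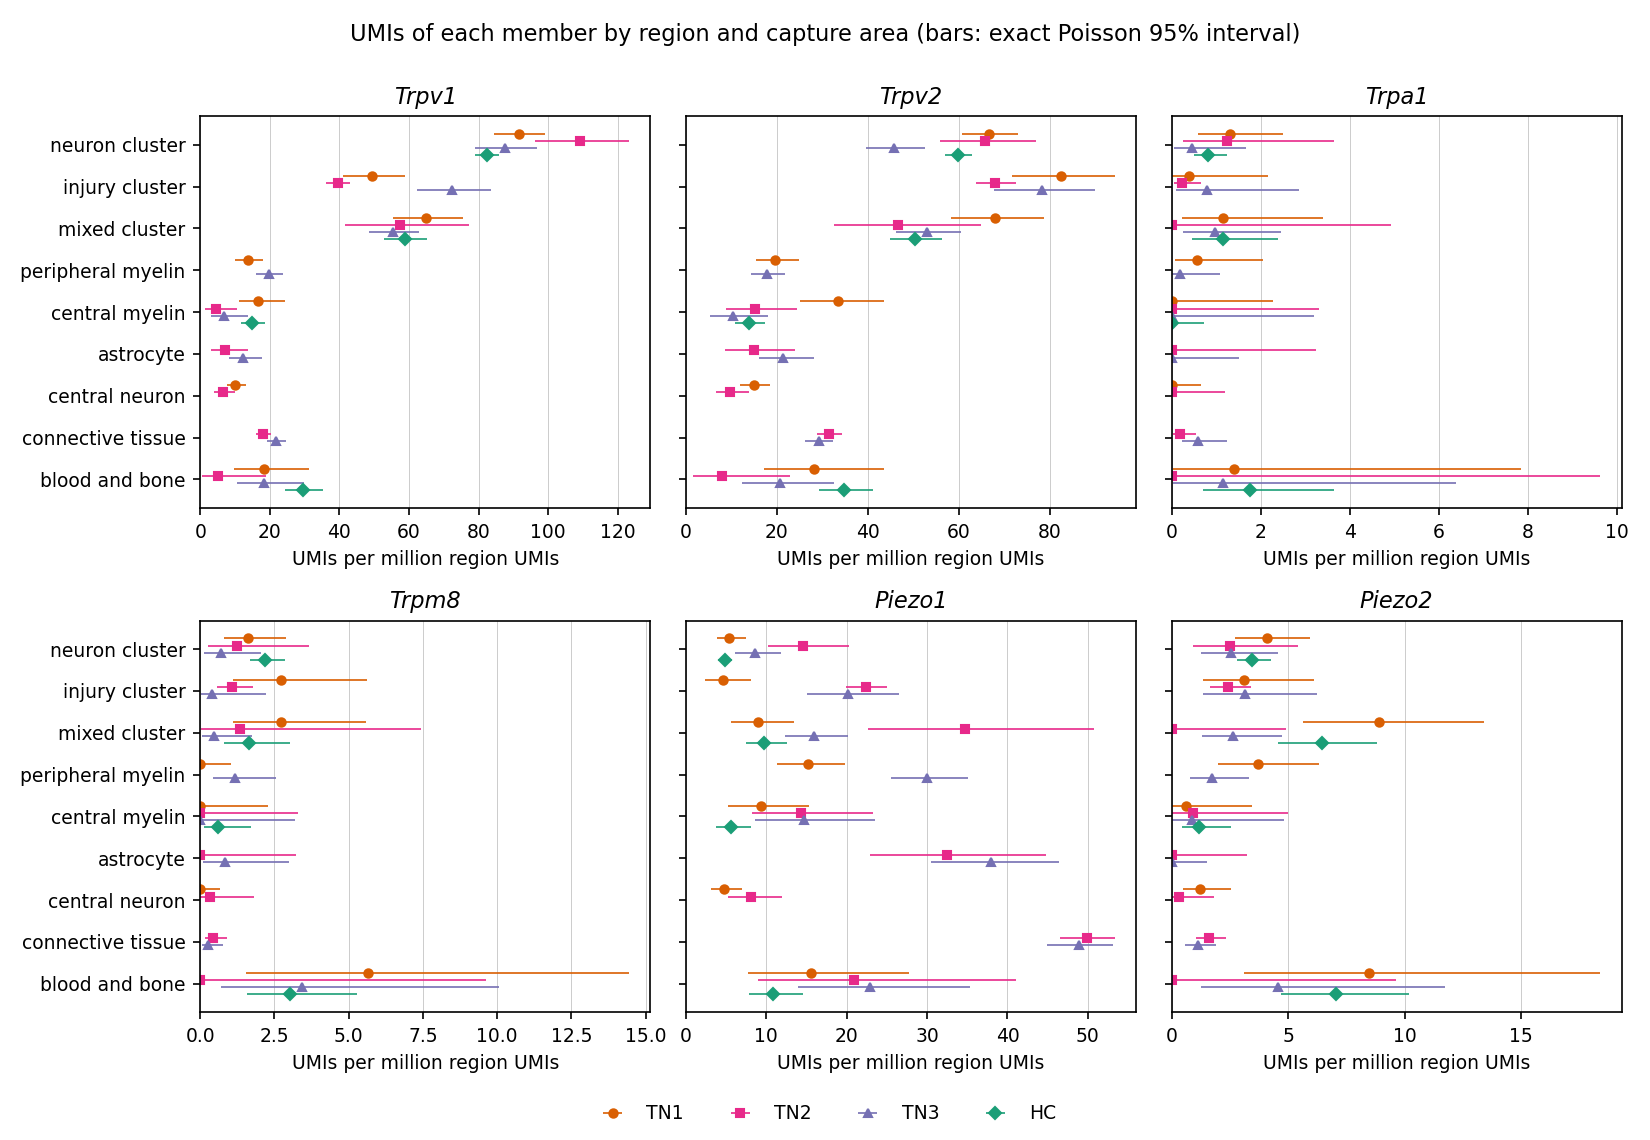
Level of each of the 6 genes in CPM (horizontal axis, scaled separately for each gene) in 9 clusters or regions, with 1 point per capture area and exact Poisson 95% intervals that cover counting error only. Trpv1 and Trpv2 are highest in the neuron, injury and mixed clusters, and Piezo1 is highest in connective tissue, at 49.9 and 48.9 CPM.

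Whether the members differed between TN and HC in the ganglion was asked on UMIs summed over the region in each area. No member passed the test, and none of all genes did. edgeR's quasi-likelihood test called 0 of 12824 genes (0%) at an adjusted p of 0.05, while 1189 (9.27%) had an unadjusted p below 0.05. DESeq2 called 118, none of them a member. With a single HC area, all of the spread in the test came from the 3 TN areas, HC was assumed to vary like them, and condition and capture area cannot be told apart. A 3 against 1 permutation test could not reach 0.05. In sums of tissue, fewer cells of a type and less RNA per cell cannot be told apart.

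In the ganglion region Trpv1 was at 80 CPM (TN1), 50.2 (TN2) and 81.9 (TN3), against 82.4 in HC. TN2 was low, and TN1 and TN3 were level with HC within counting error. The fitted log2 fold change of TN over HC was -0.29 (SE 0.31, adjusted p = 0.778). In the neuron cluster alone the sign turned, to 0.17, which did not pass the threshold. The ratio to HC there was 1.11 (1.02 to 1.22) in TN1, 1.32 (1.16 to 1.51) in TN2 and 1.06 (0.95 to 1.19) in TN3. This cluster is a part of the ganglion region in TN (40 of 366 spots in TN2) and all of it in HC (661 spots). Its values in TN and HC, here and below, therefore compare unlike sets of spots. The sensory neuron list in it was at 8386, 10949 and 7357 CPM in TN and 8319 in HC.

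Within each TN area, Trpv1 was lower in the injury cluster than in the neuron cluster. It was at 49.4 against 91.6 CPM in TN1, 39.5 against 109 in TN2 and 72.3 against 87.6 in TN3. These are ratios of 0.539 (95% counting interval 0.442 to 0.654), 0.362 (0.312 to 0.422) and 0.826 (0.688 to 0.988). The cluster was made from these spots, so the ratios are a description. The injury cluster took 326 of the 366 ganglion spots of TN2, the area with the low Trpv1 sum. The sensory neuron list was at 8269, 6936 and 7042 CPM in the injury cluster and 8386, 10949 and 7357 in the neuron cluster of TN1, TN2 and TN3.

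Trpv2, in contrast, was not lower in the injury cluster of any area. Its levels there were 82.4, 68.1 and 78.3 CPM, against 66.7, 65.8 and 45.8 in the neuron cluster, with ratios of 1.24 (1.05 to 1.46), 1.03 (0.872 to 1.23) and 1.71 (1.4 to 2.09). Over the whole ganglion region Trpv2 was at 71, 67.7 and 57.8 CPM in TN1, TN2 and TN3, and HC, at 59.9, lay inside their range. Its log2 fold change was 0.06 (SE 0.20, adjusted p = 0.932), the smallest of the 6. It was -0.06 in the neuron cluster alone.

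Piezo1 was the only member above HC in all 3 TN areas of the ganglion region, which held for 27.3% of all genes tested. Such counts of members, channel lists and all genes were made on TMM-scaled values. Its levels were 5.21 CPM (TN1), 21.2 (TN2) and 12.9 (TN3), against 4.85 in HC. TN1 was level with HC, at a ratio of 1.07 (0.755 to 1.5), while TN2 and TN3 were 4.36 (3.54 to 5.40) and 2.65 (2 to 3.51) times as high. The log2 fold change was 1.37 (SE 0.73, adjusted p = 0.575), 2.59-fold. Without TN1 it was 1.75, and without TN2 it was 0.84. In the neuron cluster alone it was at 5.41, 14.6 and 8.6 CPM in TN, against 4.85 for HC (log2 fold change 0.85, adjusted p = 0.656). In the injury cluster it was at 4.67, 22.4 and 20.2 CPM, which is 0.862 (0.409 to 1.69), 1.53 (1.08 to 2.24) and 2.35 (1.51 to 3.68) times the neuron cluster of the same area, again with TN1 apart from TN2 and TN3.

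Marker lists of other cell types were set beside Piezo1 in the ganglion region. The 6 connective tissue genes (Dcn, Lum, Col1a1, Col3a1, Mgp, Fn1) summed to 1083 CPM (TN1), 3345 (TN2) and 2517 (TN3) in the ganglion region, against 1077 in HC, and 5 of 6 were above HC in every TN area. The 6 macrophage genes summed to 230, 562 and 379 CPM in TN and to 139 in HC, again with 5 of 6 above HC in every TN area. The counts of both lists were made without TMM scaling. With it, 27.3% of all genes tested were above HC in every TN area. No gene of either list was at 0. The 5 endothelium genes found summed to 130, 163, 141 and 134 CPM. The areas stood in the same order, TN2, TN3, TN1 and HC, for Piezo1 and for the connective tissue and macrophage lists. The 5 nerve injury genes had this order too, at 1140, 474, 412 and 25.8 CPM. The order therefore cannot tell these lists apart. In TN1 the macrophage list was above HC, while Piezo1 was level with HC. Single connective tissue genes differed in TN1, with Dcn at 380 CPM against 190 in HC and Col1a1 at 243 against 536. The part of connective tissue cells and macrophages in the Piezo1 level was not tested.

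**Figure D2:**
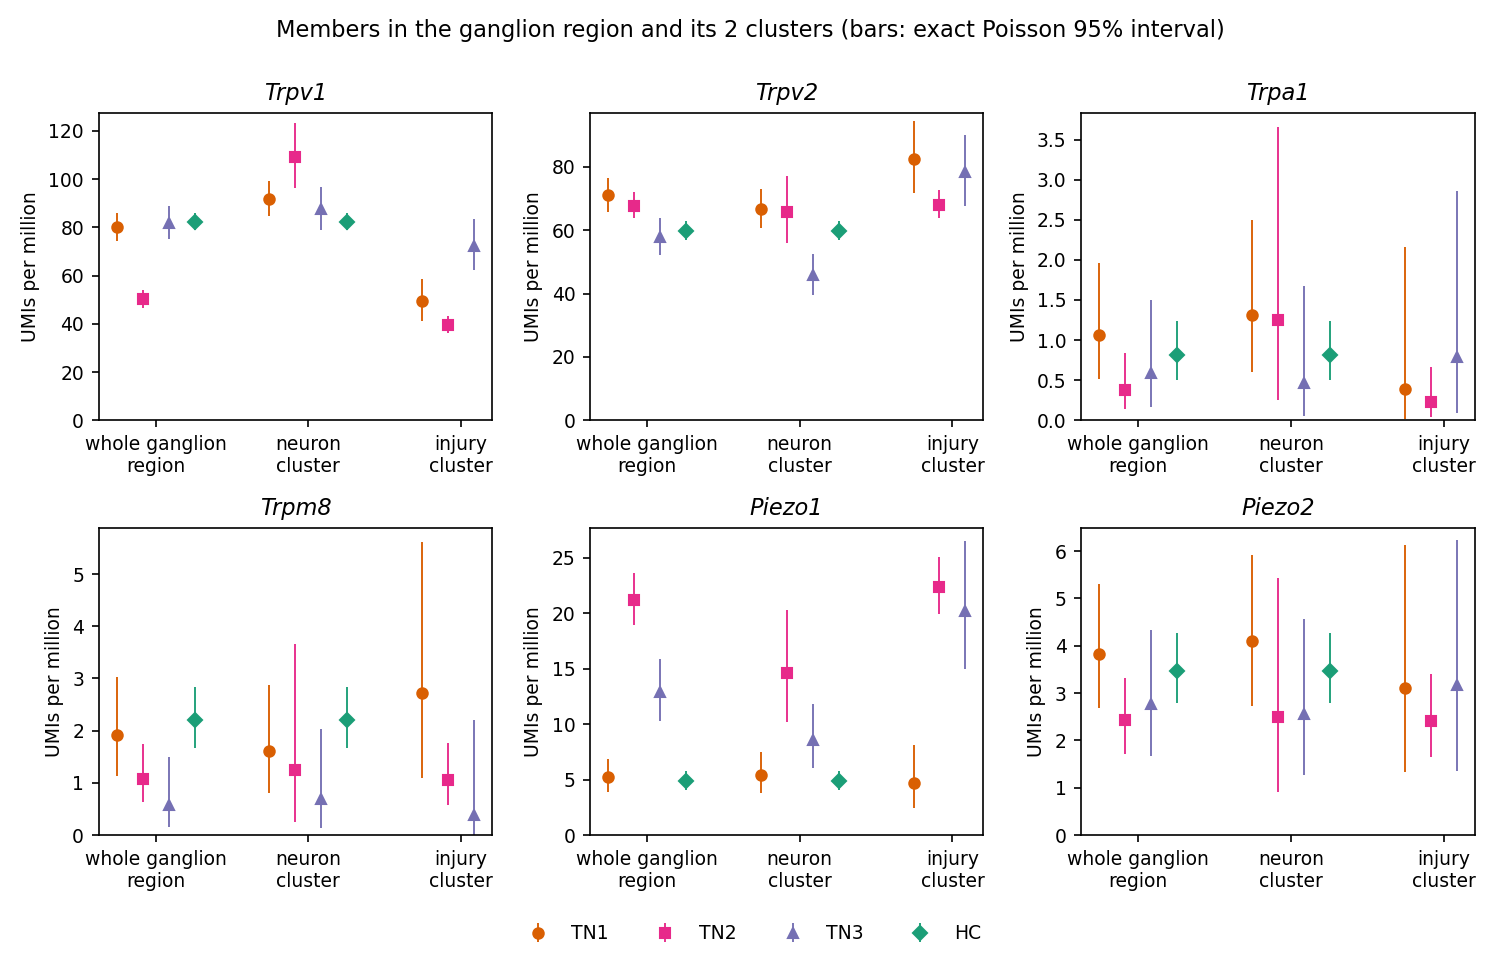
Level in CPM (vertical axis from 0) of each gene in the whole ganglion region, its neuron cluster and its injury cluster, with 1 point per capture area and exact Poisson 95% intervals. HC has no spot in the injury cluster. Trpv1 is lower in the injury than in the neuron cluster of each TN area, Trpv2 is not, and Piezo1 of TN1 stays level with HC at 5.21 and 4.85 CPM.

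**Figure D3:**
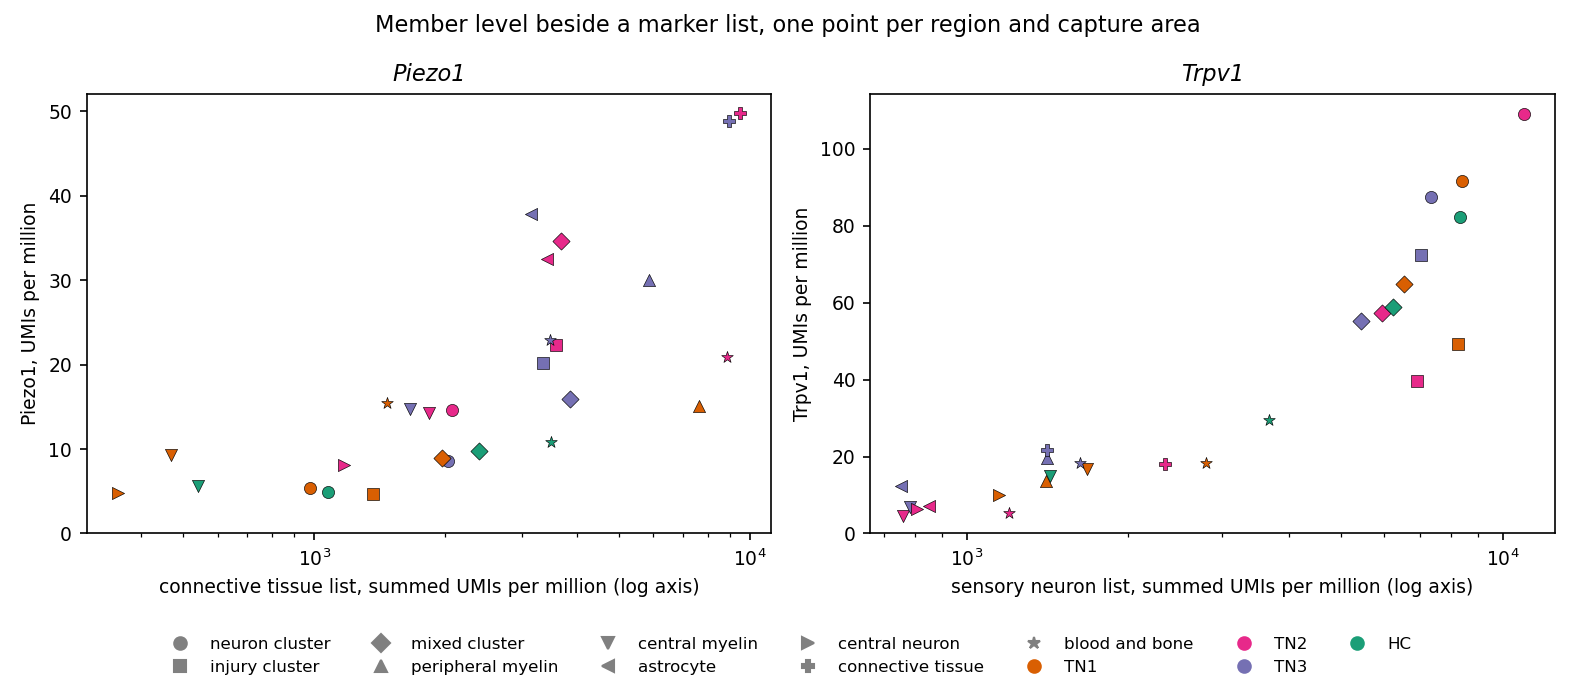
Left, Piezo1 against the summed connective tissue list. Right, Trpv1 against the summed sensory neuron list (both in CPM, horizontal axes logarithmic). Each of the 27 points is a region or cluster in 1 area, with shape for the region and color for the area. Piezo1 is highest in connective tissue, where the list is highest too. Blood and bone of TN2 and peripheral myelin of TN1, at 8841 and 7635 CPM of the list, have 20.9 and 15.1 CPM of Piezo1. The injury cluster of TN1 and TN2 lies below the neuron and mixed clusters in Trpv1, at 49.4 and 39.5 CPM. In TN3 it is at 72.3 CPM, below the neuron cluster (87.6) and above the mixed one (55.3). The sensory neuron list of TN1, TN2 and TN3 is at 8269, 6936 and 7042 CPM in the injury cluster. In the neuron cluster it is at 8386, 10949 and 7357 CPM.

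The sparse members rested on few UMIs. Trpm8 was at 1.91, 1.08 and 0.59 CPM in the TN areas and 2.2 in HC, below HC in all 3, as 29.7% of all genes were. Its ratio to HC was 0.871 (0.483 to 1.5) in TN1, 0.494 (0.269 to 0.861) in TN2 and 0.267 (0.0702 to 0.721) in TN3. Its log2 fold change was -0.92 (SE 0.66, adjusted p = 0.657). Piezo2 was at 3.83, 2.42 and 2.78 CPM in TN, a range that includes the 3.47 of HC, with a log2 fold change of -0.27 (SE 0.45, adjusted p = 0.858). Trpa1 was at 1.06, 0.38 and 0.59 CPM in TN, against 0.81 for HC (log2 fold change -0.36, SE 0.81, adjusted p = 0.904). For Piezo2 and Trpa1 the counting interval of each ratio to HC included 1. Scaled to 1000 UMIs of 8 pan-neuronal genes, which took between 1.37% and 1.52% of the ganglion UMIs, all 6 members kept the direction of the fit. The median log2 fold change of the 6 members was -0.28, beside 0.03 for all genes tested.

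Summed over all spots of an area, 5 of the 6 members were below HC in every TN area (30.6% of all genes were) and Piezo1 was above HC in every TN area (28.7% were). No member was called, nor was any of 14902 genes (0%), while 1271 (8.53%) had an unadjusted p below 0.05. DESeq2 called 158 genes and no member. The median log2 fold change of the members was -0.85, beside 0.06 for all genes. Trpv1 was at 45.3 CPM (TN1), 30.1 (TN2) and 37.2 (TN3), against 65.1 in HC (log2 fold change -0.87, SE 0.29, adjusted p = 0.556). The ganglion region supplied 40%, 40.4% and 21.2% of all UMIs in TN and 62.8% in HC, so the areas differ in the tissue they hold. Outside the ganglion region Trpv1 was at 22.2, 16.5 and 25.2 CPM in TN, against 36 for HC. This part includes the mixed cluster, which held 167 of 314, 43 of 381 and 230 of 639 of these UMIs in TN1, TN2 and TN3. In HC it held 356 of 554. Within the mixed cluster the ratio to HC was 1.10 (0.911 to 1.33), 0.974 (0.693 to 1.34) and 0.94 (0.793 to 1.11).

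Over all spots Trpv2 was at 45.5, 43.4 and 35 CPM in the TN areas, all below the 50.2 of HC (log2 fold change -0.37, adjusted p = 0.599). Piezo1 was at 7.64, 32.5 and 31.2 CPM in TN, all above the 6.24 of HC (log2 fold change 1.85, SE 0.91, adjusted p = 0.564). TN1 and HC had fewer than 20 spots of connective tissue, the region with the highest Piezo1, and TN2 and TN3 had 457 and 522. The log2 fold change was -1.33 for Trpm8, -0.92 for Trpa1 and -0.83 for Piezo2. Without TN1 the log2 fold change was -1.04 for Trpv1, -1.7 for Trpm8 and 2.26 for Piezo1.

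The overlap of members was read in ganglion spots thinned to 10000 UMIs, which left out 1 spot of TN1 and 1 of TN2. Trpv1 then had a UMI in 46.2% of TN1, 33.7% of TN2, 49.7% of TN3 and, in the control area, 50.2% of spots. TN2 was low, with a 95% exact binomial interval of 28.9% to 38.8%, against 46.3% to 54.1% in HC. Trpv2 had 56.8%, 47.4%, 37.4% and 47.7% of spots, and Piezo1 5.03%, 23.3%, 11.7% and 5.9%. Without thinning, Trpv1 was seen in 69.9% to 89.1% of ganglion spots and Trpv2 in 86.4% to 95.5%.

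The overlap of Trpv1 and Trpv2 had no order that held across areas and thinning depths. Spots with both were 56 of 92 Trpv1 spots and of 113 Trpv2 spots in TN1 (60.9% and 49.6%). They were 41.5% and 29.5% in TN2, 45.7% and 60.7% in TN3, and 52.7% and 55.6% in HC. Trpv2 was seen in 53.3%, 50.4%, 29.3% and 42.6% of the spots without Trpv1. The difference was 7.6 and 16.4 percentage points in TN1 and TN3, 10.2 in HC and -8.95 in TN2. The intervals of both shares overlapped in all 4 areas, which does not show equal shares. In HC they barely did, at 47.2% to 58.2% against 37.1% to 48.1%. The Spearman rho of the thinned counts was 0.04, -0.09, 0.15 and 0.12 over 199, 365, 163 and 661 spots. Thinned to 5000 UMIs, Trpv2 was seen in 31.2%, 31.9%, 28.6% and 31.8% of spots with Trpv1 and 31.6%, 24%, 28.1% and 27% of the others. The order turned in TN2 and, with nearly equal shares, in TN1. Each thinning was a single random draw. Unthinned, Trpv2 was seen in 95.8%, 93%, 88.8% and 87.9% against 93.8%, 90%, 70% and 73.6%, higher with Trpv1 in all 4 areas. The unthinned rho was 0.18 to 0.30, where depth differs between spots.

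For Piezo1, the shares with and without the TRP members had overlapping counting intervals in every area. Among Trpv1 spots it had 7.61%, 22.8%, 8.64% and 5.12%, and among spots without Trpv1 2.80%, 23.6%, 14.6% and 6.69%. With Trpv2 the shares were 5.31%, 22.5%, 14.8% and 6.67%, and without it 4.65%, 24%, 9.8% and 5.2%. Spots with 2 or more of the 6 members were 33.2%, 26.6%, 28.8% and 31.8%, and spots with none were 22.1%, 23.6%, 30.7% and 24.7%. Trpa1 was seen in 2 thinned spots of TN1, 4 of HC and 0 of TN2 and TN3 (which allows up to 0.822% and 1.84%), and of the 6 spots 2 also held Trpv1. Trpm8 was seen in 3, 4, 1 and 19 spots, of which 2, 0, 1 and 12 held Trpv1. Piezo2 was seen in 11, 7, 4 and 27 spots, of which 5, 2, 2 and 11 held Trpv1. A spot holds several cells, so none of this is overlap in a cell.

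**Figure D4:**
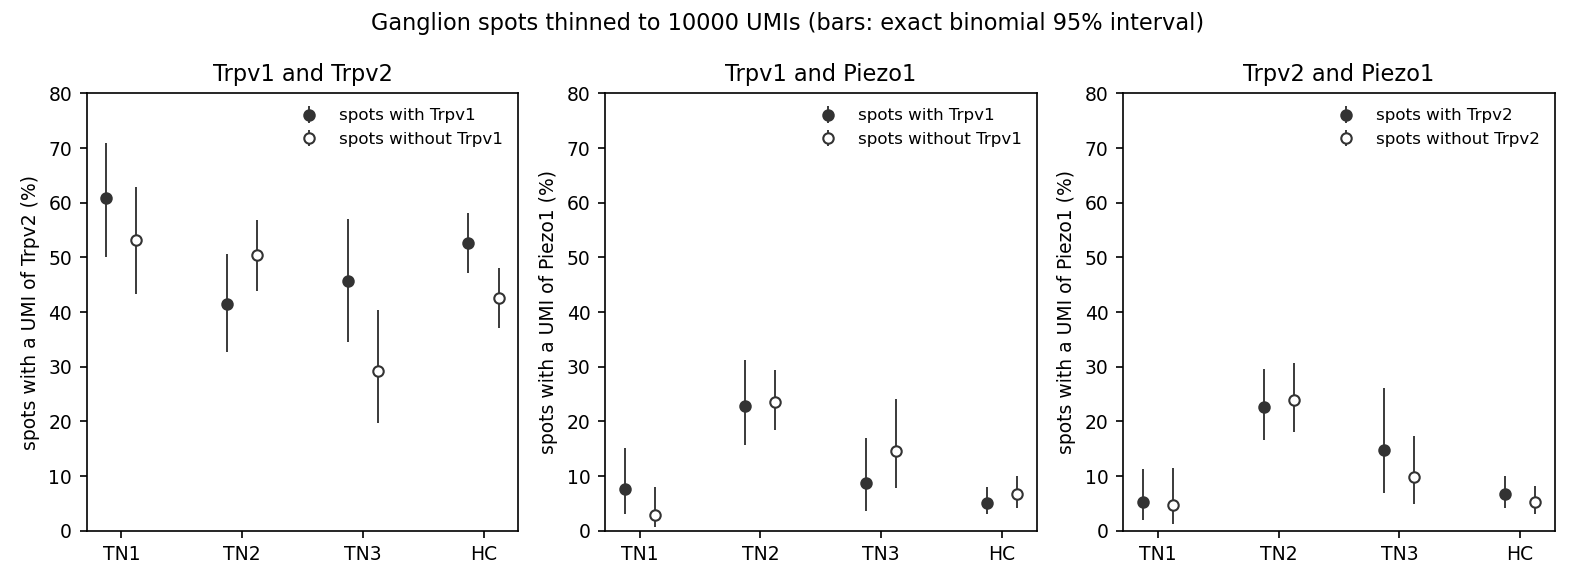
Share of ganglion spots, thinned to 10000 UMIs, with a UMI of the second gene among spots with (filled) and without (open) a UMI of the first, per capture area, with exact binomial 95% intervals. Trpv2 is seen in 60.9% of Trpv1 spots of TN1 against 53.3% of the others, with the opposite order in TN2. At 5000 UMIs the order turns in TN2 and, with nearly equal shares, in TN1. All intervals shown for a pair overlap.

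To set these shares against tissue with less of the sensory neuron list, all spots were thinned to 2000 UMIs. Trpv1 was then seen in 16.5%, 7.92%, 12.3% and 14.4% of ganglion spots (TN1, TN2, TN3, HC) but in 4.32%, 0.794%, 1.46% and 2.08% of central myelin spots. Trpv2 was seen in 13.5%, 11.2%, 9.2% and 12.4%, against 4.32%, 1.59%, 1.46% and 2.54%. Both were above central myelin in every area. Piezo1 was seen in 1%, 5.74%, 3.07% and 1.06% of ganglion spots and 2.16%, 1.59%, 3.41% and 1.15% of central myelin spots, on 2, 21, 5 and 7 ganglion spots and 6, 2, 7 and 5 central myelin spots. At this depth the share in ganglion spots was above that in central myelin in TN2 alone, with overlapping intervals. On these few spots, Piezo1 UMIs in the ganglion could not be set apart from those in central myelin. This bears on its ganglion levels and overlaps above as well. Central myelin is no blank, since it had 11 CPM of Piezo1 itself. Its sensory neuron list was at 1678, 759, 783 and 1428 CPM in TN1, TN2, TN3 and HC. The 3 sparse members were seen in at most 1.84% of ganglion spots at this depth. Median depth before thinning was 36246 to 49045 UMIs in ganglion and 4402 to 11343 in central myelin spots. Trpv1 counts were also gathered in fewer spots than Trpv2 counts. The 10% of ganglion spots with the most Trpv1 held 38%, 45.4%, 35.7% and 32.7% of its UMIs, and the 10% with the most Trpv2 held 22.8%, 26.1%, 25.3% and 25.9%.

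The genes most like a member were sought among 8498 genes with 1000 or more UMIs, over 24 sums of a region in an area. For Trpv1 these were Tac1, Tyrp1, Isl1, Cd55 and Ifi27l2b, with r between 0.967 and 0.975. For Trpv2 they were Cd55, Trpv1, Ptgir, Fam89b and Slc7a7, with r between 0.936 and 0.941. For Piezo1 they were Sipa1, Axl, Islr, Fn1 and Txnip, with r between 0.937 and 0.96. The sparse members gave lower values: Mkrn1, Usp15, Fam117a, Prkar2b and Scn9a for Trpa1 (up to 0.828), Mkrn1, Slc25a39, Fech, Dhrs11 and Urgcp for Trpm8 (up to 0.753) and B3gnt8, Mkrn1, Dcaf6, Scn10a and Psmd7 for Piezo2 (up to 0.775).

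Within the ganglion, 415 of 4591 genes were higher and 358 lower in Trpv1 spots than in the other spots of all 4 areas. Those with the largest lowest ratio were Fxyd2, Scn11a, LOC100912195, Calcb and Caly. Scn11a, the sodium channel Nav1.9 of nociceptors, was higher by 0.41, 0.76, 1.28 and 0.33 on the log2 scale in TN1, TN2, TN3 and HC. Calcb, which encodes a form of calcitonin gene-related peptide, was higher by 0.64, 0.78, 0.97 and 0.30. For Trpv2 spots 302 genes were higher and 324 lower in all 4 areas. Those with the largest lowest ratio, Mmd, Panx2, Pcmt1, Dhx36 and Med7, reached at most 0.18, and nothing particular to them is read from this. Piezo1 had 20 or more spots in TN2 and HC alone, where Gtf2e2, Zfp266, Map2k5, Mrps30 and Pla2g6 had the largest lowest ratios, with 1078 genes higher and 1373 lower in both.

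Lists of other channels and related genes were described in the same fit, and no gene of any list was called by edgeR or DESeq2 in the ganglion region. Of 24 other TRP channels, 11 were tested, 6 with a positive and 5 with a negative log2 fold change (median 0.03, the same as the 0.03 of all genes). Mcoln1, a lysosomal channel, was at 45.3, 37.8 and 38.5 CPM in TN, all below the 50.5 of HC (log2 fold change -0.39), and Pkd2, the polycystin of cilia and endoplasmic reticulum, at 11.3, 20.8 and 18.6 and 9.71 (0.73). Trpm4 and Trpc1 had values of -0.10 and -0.18, and Trpc4 (0.63) and Mcoln2 (-0.27) rested on 30 and 97 UMIs.

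Of 17 other mechanosensitive channels and partners found, 14 were tested, with 5 positive and 9 negative values and a median of -0.19. Of the 14, 6 (42.9%) were below HC in all TN areas, against 29.7% of all genes. Asic1, an acid-sensing channel, was at 169, 93.6 and 131 CPM in TN, against 264 for HC (log2 fold change -1.07, SE 0.32, adjusted p = 0.537). Asic3, its relative in nociceptors and muscle afferents, was at 209, 150 and 158 CPM in TN and 164 in HC. Mdfic, whose product binds Piezo channels, was at 18.7, 26.5 and 26.5 CPM in TN and 13.3 in HC (0.78, adjusted p = 0.537). Tmem63a, Tmem63b, Tmem63c, Tmem150c, Tmem120a and Kcnk2 lay between -0.61 and -0.12, and Kcnk4 at 0.61.

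Among genes known to tune TRP channels, 11 of 15 were tested, with 6 positive and 5 negative values and a median of 0.14. Tmem100, an adaptor between Trpa1 and Trpv1, was at 6.06, 9.06 and 6.15 CPM in TN, all above the 3.27 of HC (log2 fold change 1.05, adjusted p = 0.537). Fgf13, Cdk5, Cnr1, Bdkrb2 and Prkca lay between -0.41 and 0.30, and Plcb3, on 102 UMIs, at 0.94.

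Of 16 genes of sensory neuron subtypes, 14 were tested, with 3 positive and 11 negative values. Their median was -0.44, and 9 of the 14 (64.3%) were below HC in all TN areas, against 29.7% of all genes. Without TMM scaling 8 were, since Calca, at 1070, 1336 and 1324 CPM in TN and 1280 in HC, was not. In the neuron cluster alone the median was -0.16. Nefh, the heavy neurofilament of large neurons, was at 3571, 2466 and 3346 CPM in TN and 5615 in HC (-0.91, adjusted p = 0.537). Ldhb (-0.87), Pvalb (-0.7), Scn10a (-0.64), Sst (-0.54), Scn11a (-0.51), Gfra2 (-0.5) and Tac1 (-0.37) were also negative. Calca, Ntrk2, P2rx3 and Gfra3 lay between -0.13 and 0.02, Foxs1 at 0.29, and Th at 2.29 on 36 UMIs. Calca, Tac1, Scn10a, Scn11a and P2rx3 are also markers by which the region was named. Trpv1, at -0.29, lay inside the range of these genes.

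**Figure D5:**
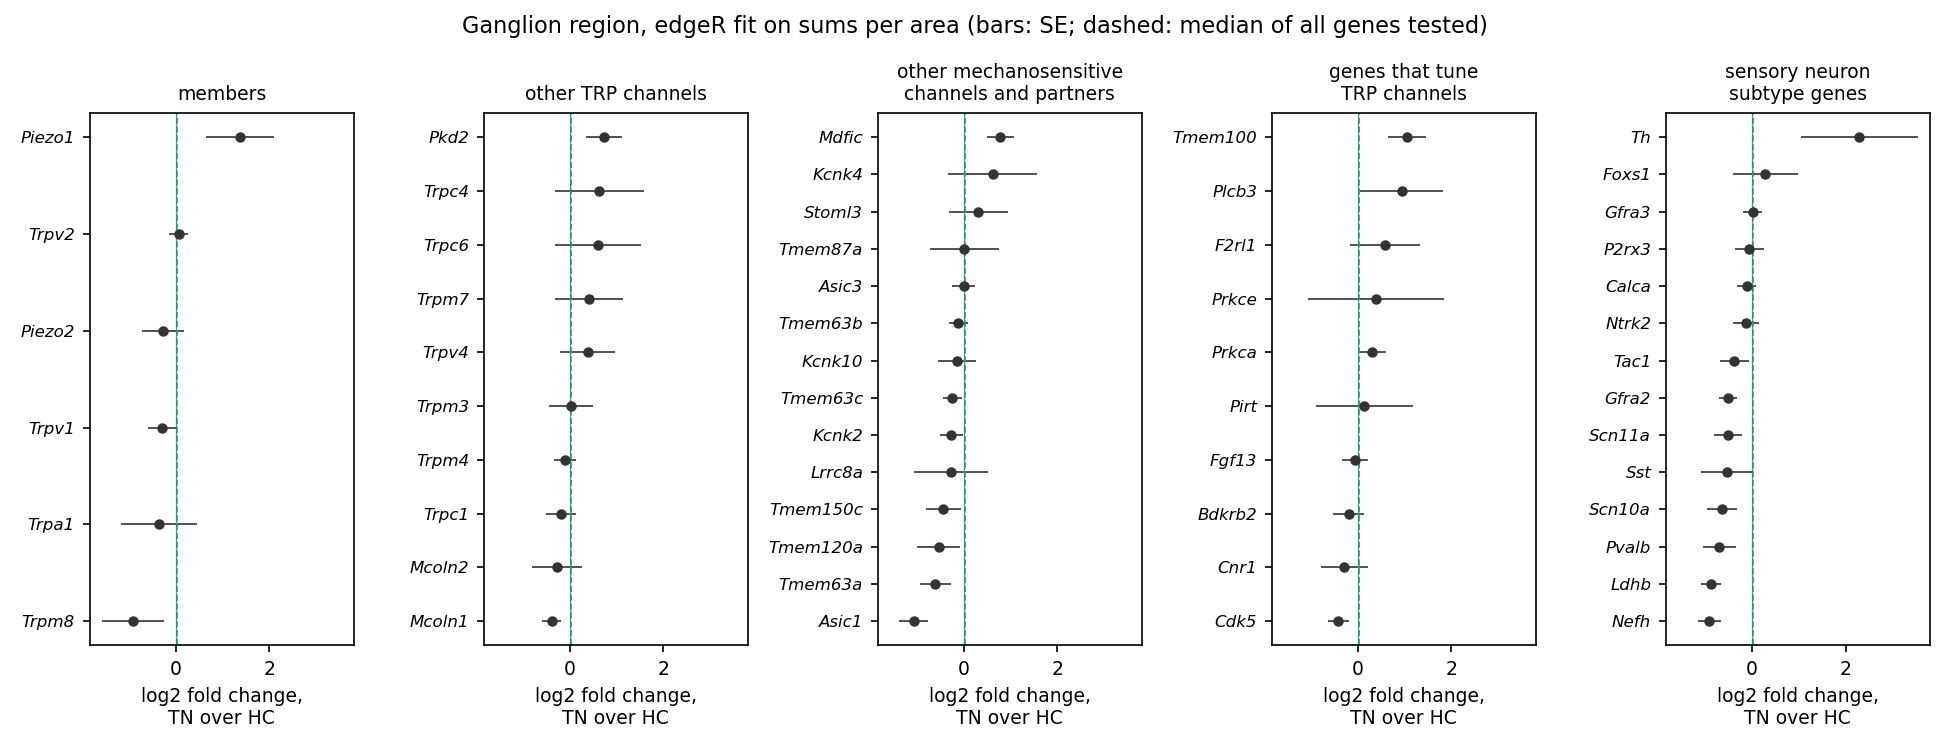
Log2 fold change of TN over HC (horizontal axis) in the ganglion region for the 6 members and the tested genes of 4 lists that are reported here, from the edgeR fit on sums per area. Bars are the SE, the solid line is 0 and the dashed line is the median of all genes tested, 0.03. No gene shown passed the test, and Piezo1 at 1.37 and Trpm8 at -0.92 are the outermost members.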

How the data were processed

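Visium libraries of 4 capture areas were sequenced. Raw UMI counts, whole numbers without normalization, were made by the authors with Space Ranger (version 1.2.0 in the matrix header, with STAR named in the processing notes) and deposited for all areas in 1 matrix. Genome build, annotation and any equalizing of depth between areas are not stated or given in the sources used here. Areas were read from the number after each barcode. Of 3573 barcode sequences, 2337 occurred in more than 1 area.

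From the counts, 16088 genes with a UMI in 10 or more spots entered SCTransform (sctransform 0.4.2, Seurat 5.3.0). Of the 3000 variable genes, 11 channel genes were left out, and 30 principal components and K-means (50 starts) gave 10 clusters. A cluster took the name of the marker list with the highest mean of centred log2(CPM + 5). A cluster with more myelin than sensory neuron genes among its 10 leading genes was then set aside, a step added to the naming rule after the data were seen. Regions with 20 or more spots in an area are reported. No doublet caller was applied to spots.

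The quasi-likelihood test of edgeR 4.0.16 in R 4.3.3 compared sums per area after filterByExpr and TMM scaling, with Benjamini-Hochberg adjustment at 0.05, and left 2 residual degrees of freedom. The SE is the absolute log2 fold change divided by the square root of F. In simulated ganglion counts it found 22.7%, 64.3% and 87.5% of the genes given log2 changes of 1, 2 and 3, and made 9 false calls (12473 genes). For sums over all spots it found 1.39%, 24.5% and 70.9% and made 1 false call (14550 genes). Simulated counts had the trended dispersion alone, without a spread particular to each gene, so these shares can be higher than in real counts. In the data the ganglion test called 0 genes, Atf3 included, which was at 144, 335 and 168 CPM in TN and 5.24 in HC. Levels are CPM without TMM. Intervals are exact Poisson or binomial at 95%, and with the limits for 0 counts (3 counts) they cover counting error only. UMIs were thinned at random to compare shares.

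Alternatives were DESeq2 1.42.0, its size factors in edgeR, no filter, each TN area left out, gene families left out, a spot minimum of 500 genes and 1000 UMIs, other clusterings, the neuron cluster alone, pan-neuronal scaling and other thinning. The mixed cluster was added to the ganglion region in an alternative chosen after the data were seen. The members, marker lists and channel lists were chosen with earlier results of these data known. List genes with 300 or more ganglion UMIs, or among the 2 highest and 2 lowest log2 fold changes of their list, are named, apart from 2 that are not reported here. Promoter sequences are from RefSeq (GRCr8).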

Additional observations from a re-analysis of the deposited data

How the results depend on the processing

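The number of genes called in the ganglion region, 0 as reported, was 118 with DESeq2, 20 without a filter on low counts and 6 in the neuron cluster alone, and it ranged from 0 to 1155 when a TN area was left out, with 1155 without TN1 and 31 without TN2. Over all spots it was 158 with DESeq2 and ranged from 0 to 2171, with 2171 without TN1. The other 14 of 21 alternatives gave 0. Of 131 member values, 123 kept their direction and their side of the threshold. In the neuron cluster alone the log2 fold change of Trpv1 was 0.17 and that of Trpv2 -0.061. With a TN area left out it ranged from -0.0030 to 0.17 for Trpv2, -0.89 to 0.016 for Trpa1 and 0.84 to 1.75 for Piezo1 in the ganglion region, and from -1.04 to -0.71 for Trpv1, -1.7 to -1.14 for Trpm8 and 1.59 to 2.26 for Piezo1 over all spots. Each member call gained came without TN1, and the cause was not tested. Some genes of the channel lists also passed without TN1. Many other genes did so as well, so nothing particular to members or lists is read from these calls. The mean Trpv1 level was 92.7 CPM in the neuron cluster alone, and the other 29 of 30 regional levels moved by less than 1 SD.

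Shares of spots follow depth. Thinned to 5000 UMIs, the mean over areas was 28.4% for Trpv1 and for Trpv2, 0.451% for Trpm8 and 1.71% for Piezo2. Without thinning it was 82.7% for Trpv1, 90.1% for Trpv2, 2.8% for Trpa1, 5.58% for Trpm8, 34.3% for Piezo1 and 12% for Piezo2. Unthinned, the mean difference in Piezo1 between Trpv1 spots and other spots was -6.09 percentage points, from 22.0% against 15.6% in TN1, 54.7% against 64.5% in TN2, 38.5% against 60% in TN3 (20 spots without Trpv1) and 17.3% against 16.7% in HC. Trpa1 could not be tested in the neuron cluster alone, and its adjusted p from DESeq2 in the ganglion region was not given. No paired analysis was possible because HC is 1 area without a number that matches a TN area. HC could not be left out, and a group of 3 areas was too small to look for outlying samples.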
